A study of Mus musculus with 21 samples.

Results

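The 10 genes described here lie between the insulin receptor and the glucose transporter of skeletal muscle, and their transcripts were measured in the gastrocnemius of mice that differed in treadmill training. They are Insr, Irs1, Irs2, Akt2, Tbc1d1, Tbc1d4, Slc2a4, Rac1, Pak1 and Pak2, which are 10 of the 40853 genes in the table of raw read counts, and all 10 were among the 16129 that passed the filter on low counts. They were chosen by name for their place in this pathway, with earlier results of the same libraries known, so the differences of these 10 genes between groups are given as a description, with no p-value for any of them. How many of the 10 were called is printed beside the share of all genes called, and nothing is read from it. RNA of the medial belly was sequenced after poly(A) selection from 21 young adult female C57BL/6NJ mice, with 1 library per mouse. The Inactive group (7 mice) was never trained, the Active group (7 mice) trained on a treadmill for 6 weeks, and the Activity Reduction group (7 mice) trained for 4 weeks and was then inactive for 2 weeks. The paper states that mice of every group, Inactive included, also ran graded maximal tests on the treadmill. Tissue was taken some days after the last test and after a fast of some hours. The mice carried no engineered allele that the labels name, and training was the only treatment the labels list.

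Insulin bound to its receptor (Insr) leads to phosphorylation of the adaptor proteins IRS1 and IRS2 (Irs1, Irs2), which recruit PI3K and so activate the kinase AKT2 (Akt2). AKT2 phosphorylates TBC1D4 and TBC1D1 (Tbc1d4, Tbc1d1), proteins that hold back the Rab GTPases of storage vesicles, and the vesicles then carry the glucose transporter GLUT4 (Slc2a4) to the cell surface. A parallel branch runs through the small GTPase RAC1 (Rac1) and its effector kinases PAK1 and PAK2 (Pak1, Pak2), which reshape cortical actin. Muscle contraction also acts on TBC1D1 and RAC1, which is why the same genes are studied in exercise.

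On GRCm39 the genes lie at chr8:3172061-3329647 (Insr, minus strand), chr1:82210822-82269338 (Irs1, minus), chr8:11034681-11059499 (Irs2, minus), chr7:27284378-27340262 (Akt2, plus) and chr5:64313648-64508829 (Tbc1d1, plus). The others lie at chr14:101679135-101846739 (Tbc1d4, minus), chr11:69831006-69839070 (Slc2a4, minus), chr5:143489389-143514493 (Rac1, minus), chr7:97437327-97562132 (Pak1, plus) and chr16:31835105-31898186 (Pak2, minus). The counts are per gene, so transcript isoforms cannot be told apart.

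The libraries held between 38482455 and 59785132 counts on genes, with a median of 49284630. Transcripts of 24 liver genes split the libraries unevenly by group, with 8 that held more of them (5 Active, 2 Activity Reduction and 1 Inactive) against 13 that held fewer (2 Active, 5 Activity Reduction and 6 Inactive). The 8 were the mice with the lowest animal numbers in the labels, so the split followed the numbering of the animals. A group difference and a difference between these sets are therefore partly confounded, and values within each set are given beside the members whose differences were largest. The tissue label matched most of its markers. Transcripts of 8 fast-fibre genes such as Ckm and Myh4 summed to between 141159 and 173157 CPM, that is counts scaled to the same total in every library, and those of 6 slow-fibre genes such as Myh7 and Tnnt1 summed to between 426 and 1695 CPM. The slow-fibre sum ranged from 1303 to 1695 CPM in Inactive mice, from 701 to 1617 CPM in Active mice and from 426 to 1403 CPM in Activity Reduction mice. Of the 8 fast-fibre genes, Mylpf held only 1.77 to 3.59 CPM, and the reason was not tested. None of the 6 slow-fibre genes was at 0 in any library. In bulk tissue, fewer cells of a type and less RNA per cell cannot be told apart.

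The sequences just before the starts of Slc2a4, Tbc1d1 and Irs1 are shown because of their within-group correlations. These 3 genes form 2 of the pairs that passed at an unadjusted p under 0.05 by Pearson's r. By Spearman's rho, Irs1 with Tbc1d1 passed too (rho = -0.62, permutation p = 0.0368, adjusted p = 0.237). Each line is the 250 bases upstream of the start of the gene's canonical transcript on GRCm39, read in the direction of transcription. Slc2a4 lies on the minus strand and its window is chr11:69839062-69839311, of which 9 bases overlap an annotated exon. Tbc1d1 lies on the plus strand (window chr5:64316497-64316746) and Irs1 on the minus strand (window chr1:82269339-82269588), and neither window overlaps an exon. Capitals mark matches on either strand to the E-box CANNTG or the GC box GGGCGG.
Slc2a4: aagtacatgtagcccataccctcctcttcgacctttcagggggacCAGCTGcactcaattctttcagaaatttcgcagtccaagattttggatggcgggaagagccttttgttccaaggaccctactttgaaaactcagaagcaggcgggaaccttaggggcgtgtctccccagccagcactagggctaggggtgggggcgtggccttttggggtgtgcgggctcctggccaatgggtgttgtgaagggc
Tbc1d1: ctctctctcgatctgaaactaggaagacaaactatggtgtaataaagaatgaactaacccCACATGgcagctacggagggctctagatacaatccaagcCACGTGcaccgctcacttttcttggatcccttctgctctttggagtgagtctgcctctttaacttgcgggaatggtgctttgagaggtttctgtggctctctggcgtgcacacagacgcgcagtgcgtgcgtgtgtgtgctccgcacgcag
Irs1: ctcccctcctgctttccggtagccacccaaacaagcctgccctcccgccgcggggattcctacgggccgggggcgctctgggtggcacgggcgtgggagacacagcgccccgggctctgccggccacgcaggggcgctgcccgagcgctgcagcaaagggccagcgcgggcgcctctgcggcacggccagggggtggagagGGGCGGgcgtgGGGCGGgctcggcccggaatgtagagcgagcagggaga
Slc2a4 held 1 E-box, from 205 to 200 bases before the start, Tbc1d1 held 2 E-boxes, and Irs1 held 2 GC boxes and no E-box. Of 21757 protein-coding promoters of the same length, 64.8% held an E-box and 36.3% a GC box. The forkhead motif TGTTTAC (2.72% of promoters) and the MEF2 motif (2.79%) had no match in these windows. Sites farther upstream than 250 bases were not searched.

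Slc2a4, the gene of GLUT4, was the most highly expressed of the 10 per length of exon. It averaged 4496 ± 251 normalized counts per kb of exon in Inactive mice (SD, n = 7), where normalized counts are raw counts divided by the size factor of the library. Rac1 averaged 1427 ± 97.4 and Akt2 1244 ± 67.6 on the same scale, and the libraries of these 2 genes overlapped with each other and with no other member. Tbc1d1 (525.9 ± 133), Irs1 (420 ± 118), Insr (331 ± 15.1), Tbc1d4 (321.5 ± 42.9) and Pak1 (242 ± 9.19) followed, each overlapping the next. Irs2 (176 ± 42.6) and Pak2 (133 ± 13.4) were lowest and overlapped each other, and the highest Irs2 library lay below the lowest Pak1 library. Of the exon length of Rac1, 56.1% overlaps exons of Daglb on the other strand, and since no source used here states whether reads were counted by strand, the Rac1 values are uncertain. A processed pseudogene of Akt2 that the table does not list matches 31.5% of its transcript, so reads in that stretch could have been split.

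How much a member varied between mice differed widely among the 10. Over the 21 libraries the highest value was 1.26 times the lowest for Akt2, 1.27 times for Insr, 1.28 times for Slc2a4, 1.33 times for Rac1 and 1.34 times for Pak2. It was 1.80 times for Pak1, 2.30 times for Irs2, 2.32 times for Tbc1d4, 2.78 times for Irs1 and 3.23 times for Tbc1d1. The receptor, the kinase and the transporter were thus the steadier transcripts, and the adaptors and the Rab regulators the more variable ones.

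**Figure D1:**
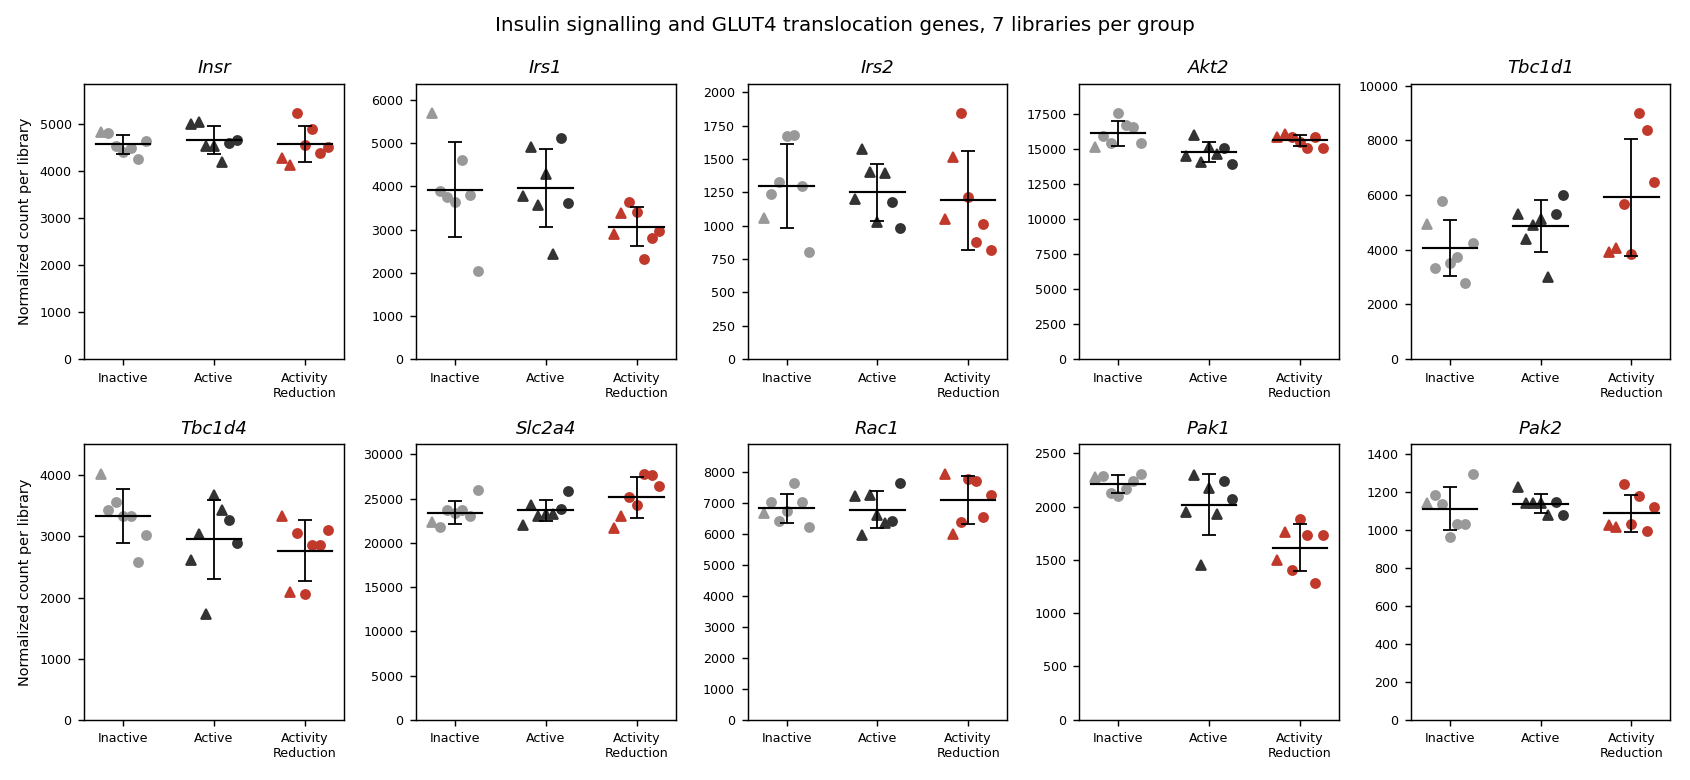
Normalized counts of the 10 genes (vertical axes from 0) in each of the 21 libraries by group. Circles are the 13 libraries with fewer liver transcripts and triangles the 8 with more, and lines and bars give the group mean ± SD (n = 7). All 7 Activity Reduction libraries of Pak1 lie between 1282 and 1880, below all 7 Inactive libraries.

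Pak1 had the clearest pattern by group. Its normalized counts ran from 2099 to 2307 in Inactive mice (median 2237), from 1451 to 2299 in Active mice (median 2073) and from 1282 to 1880 in Activity Reduction mice (median 1731). Every Activity Reduction library lay below every Inactive library, and 6 of the 7 Active libraries lay above every Activity Reduction library, the exception being Active replicate 3. Of all genes tested, 0.062% had groups that did not overlap with lower values in Activity Reduction against Inactive mice, and 0.0558% with higher values. The log2 fold change of Pak1 was -0.45 (SE 0.0857, 95% interval -0.63 to -0.27) in Activity Reduction against Inactive mice (a change of -26.9%), -0.32 (SE 0.0858, interval -0.50 to -0.15) against Active mice and -0.13 (SE 0.0854, interval -0.31 to 0.05) in Active against Inactive mice. The log2 ratio of the Activity Reduction to the Inactive mean was -0.46 among the 13 libraries with fewer liver transcripts, and among the other 8, where 2 libraries stood against 1, it was -0.48. Of the 6 slow-fibre markers, 3 were lower in this comparison at an unadjusted p under 0.05 and 0 were called by edgeR, with a median log2 fold change of -0.58 over the 6. With their level as a covariate, a fit added after the data were seen, the difference was -0.41.

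Its paralogue Pak2 ranged from 964 to 1294 normalized counts in Inactive mice (median 1133), from 1078 to 1226 in Active mice (median 1143) and from 993 to 1242 in Activity Reduction mice (median 1029), and all groups overlapped. Its log2 fold changes lay between -0.07 and 0.04, with an SE of 0.0622 or 0.0623. The ratio of Pak1 to Pak2, both per kb of exon, was 1.83 ± 0.139 in Inactive mice, 1.62 ± 0.241 in Active mice and 1.37 ± 0.220 in Activity Reduction mice (SD, n = 7). The highest Activity Reduction ratio, 1.67, was above the lowest Inactive ratio, 1.63. Rac1, which acts upstream of both kinases, ranged from 6225 to 7651 in Inactive mice (median 6746), from 5967 to 7638 in Active mice (median 6609) and from 6002 to 7933 in Activity Reduction mice (median 7266), with log2 fold changes between 0.00 and 0.06 (SE 0.0648).

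Tbc1d1 had the widest spread. Its normalized counts ran from 2781 to 5773 in Inactive mice (median 3726), from 2985 to 6005 in Active mice (median 5108) and from 3856 to 8991 in Activity Reduction mice (median 5656). All 7 Activity Reduction libraries were above the Inactive median, and 3 of them were above every library of both other groups. The log2 fold change was 0.55 (SE 0.198, 95% interval 0.14 to 0.96) in Activity Reduction against Inactive mice, 0.28 (SE 0.197, interval -0.13 to 0.69) against Active mice and 0.27 (SE 0.197, interval -0.14 to 0.68) in Active against Inactive mice. The size rested on Activity Reduction replicates 5 and 6, which held 8991 and 8390 normalized counts. Without them, a setting chosen after their values were seen, the difference was 0.24 against Inactive mice and -0.02 against Active mice. The direction also differed by the liver division: the log2 ratio of the Activity Reduction to the Inactive mean was 0.78 in the 13 libraries with fewer liver transcripts and -0.31 in the other 8, with 2 libraries against 1. With the slow-fibre level as a covariate it was 0.78.

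Tbc1d4 ranged from 2590 to 4025 normalized counts in Inactive mice (median 3342), from 1733 to 3685 in Active mice (median 3046) and from 2061 to 3330 in Activity Reduction mice (median 2865). All 7 Activity Reduction libraries were below the Inactive median, and the groups overlapped. The log2 fold change in Activity Reduction against Inactive mice was -0.26 (SE 0.136, 95% interval -0.54 to 0.02), and -0.09 with the slow-fibre level as a covariate. The ratio of Tbc1d1 to Tbc1d4, per kb of exon, was 1.63 ± 0.309 in Inactive mice, 2.36 ± 0.847 in Active mice and 2.89 ± 0.913 in Activity Reduction mice (SD, n = 7). The lowest Activity Reduction ratio, 1.58, lay below the highest Inactive ratio, 2.18.

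**Figure D2:**
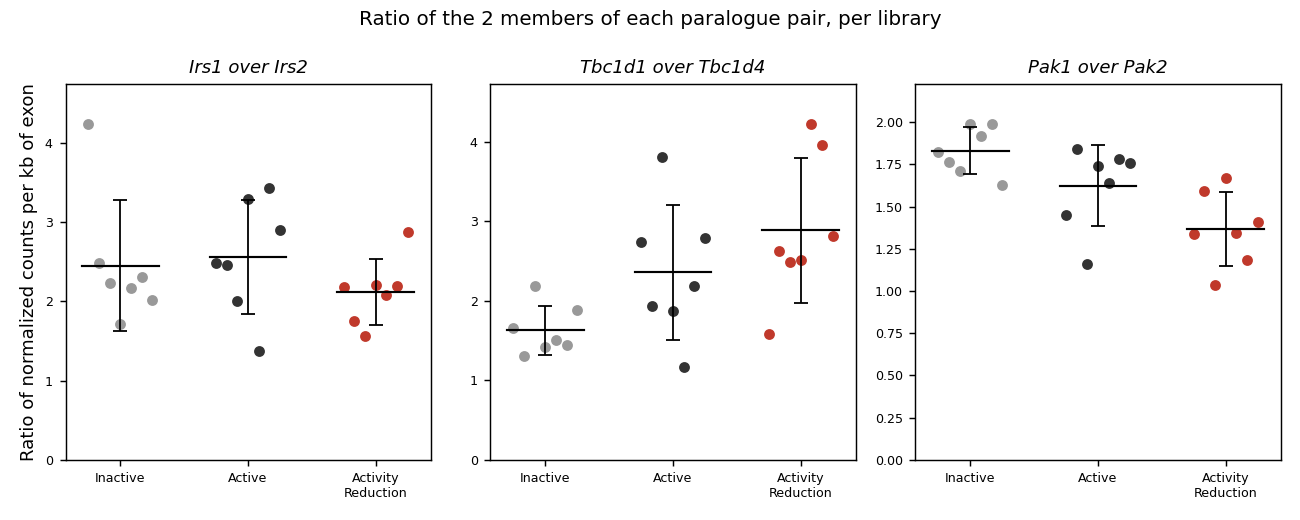
Ratio of normalized counts per kb of exon (vertical axes from 0) for Irs1 over Irs2, Tbc1d1 over Tbc1d4 and Pak1 over Pak2 in each library by group, with the group mean ± SD (n = 7). The Pak1 ratio averages 1.83 in Inactive mice and 1.37 in Activity Reduction mice, and the Tbc1d1 ratio is highest on average, 2.89, in Activity Reduction mice.

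Of the adaptors, Irs1 ran from 2048 to 5700 normalized counts in Inactive mice (median 3799), from 2439 to 5116 in Active mice (median 3790) and from 2320 to 3647 in Activity Reduction mice (median 2979). All 7 Activity Reduction libraries lay below the median of each other group, and the groups overlapped, since 2 Inactive and 3 Active libraries lay below the highest Activity Reduction library. The log2 fold change was -0.35 (SE 0.167, 95% interval -0.70 to -0.01) in Activity Reduction against Inactive mice and -0.37 (SE 0.167, interval -0.72 to -0.03) against Active mice. The log2 ratio of means in Activity Reduction against Inactive mice was -0.26 in the 13 libraries with fewer liver transcripts and -0.86 in the other 8. In the latter, 2 libraries stood against 1, Inactive replicate 1, whose 5700 was the highest Irs1 value of all libraries. Irs2 ranged from 801 to 1677 in Inactive mice (median 1296), from 986 to 1575 in Active mice (median 1200) and from 815 to 1845 in Activity Reduction mice (median 1049), and its log2 fold changes lay between -0.12 and -0.04 (SE 0.173). The ratio of Irs1 to Irs2 per kb of exon was 2.45 ± 0.825, 2.56 ± 0.721 and 2.12 ± 0.417 in the Inactive, Active and Activity Reduction groups.

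The receptor, the kinase and the transporter had the narrowest intervals. Insr ranged from 4256 to 4824 normalized counts in Inactive mice (median 4540), from 4180 to 5043 in Active mice (median 4597) and from 4128 to 5229 in Activity Reduction mice (median 4501), with log2 fold changes between -0.03 and 0.03 (SE 0.0494 or 0.0495). Akt2 ranged from 15145 to 17564 in Inactive mice (median 15909), from 13935 to 15999 in Active mice (median 14622) and from 15072 to 16091 in Activity Reduction mice (median 15830). Of the 7 Active libraries, 5 were below every Inactive library, and the log2 fold change was -0.12 (SE 0.0366, 95% interval -0.20 to -0.04), a change of -7.99%. For Akt2 the log2 ratio of the Active to the Inactive mean was -0.17 among the 13 libraries with fewer liver transcripts, with 2 libraries against 6. Among the other 8, with 5 libraries against 1, it was -0.03. Slc2a4 ranged from 21836 to 25935 in Inactive mice (median 23420), from 21984 to 25884 in Active mice (median 23316) and from 21695 to 27804 in Activity Reduction mice (median 25192). Of the 7 Activity Reduction libraries, 3 were above every library of the other groups and 1 was below every one. The log2 fold change of Slc2a4 in Activity Reduction against Inactive mice was 0.11 (SE 0.0516, interval 0.00 to 0.21). The log2 ratio of means was 0.16 among the 13 libraries with fewer liver transcripts and 0.00046 among the other 8, with 2 libraries against 1. The same 3 libraries, Activity Reduction replicates 5, 6 and 7, were highest in Slc2a4 and in Tbc1d1.

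**Figure D3:**
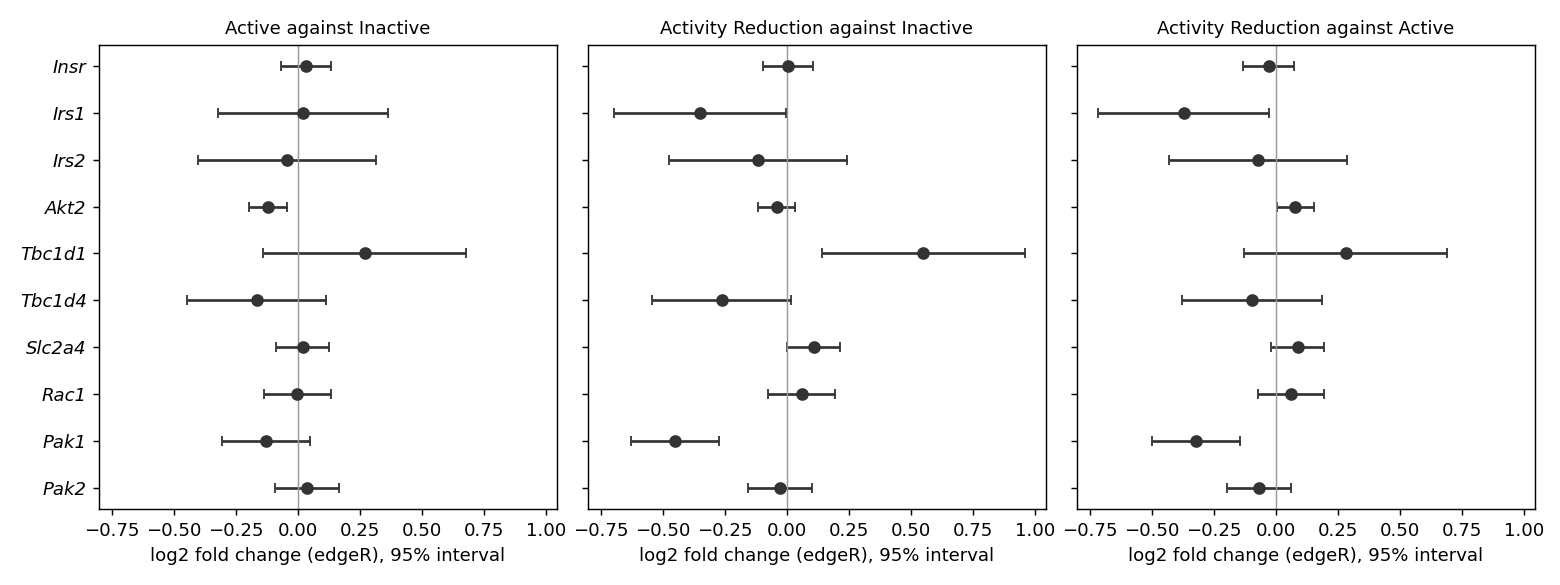
Log2 fold change of each of the 10 genes from edgeR, with its 95% interval, for the 3 comparisons between groups. Pak1 has the interval farthest below 0, from -0.63 to -0.27 in Activity Reduction against Inactive mice, and Insr and Pak2 lie near 0 in all 3 panels.

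Across all genes, edgeR's quasi-likelihood test called a transcript at a Benjamini-Hochberg adjusted p under 0.05 with a log2 fold change over 0.25 in either direction. It called 0 of the 10 members in each comparison. Of all genes tested it called 0 (0%) in Active against Inactive mice, 2 (0.0124%) in Activity Reduction against Inactive mice and 0 (0%) in Activity Reduction against Active mice. The 2 were Kcnj11, a subunit of the ATP-sensitive potassium channel (log2 fold change 0.26, SE 0.0429), and Smyd2, a lysine methyltransferase (0.44, SE 0.0735), each with an adjusted p of 0.0355 from edgeR. Neither belongs to the lists used here, and both are named because of this count. At an unadjusted p under 0.05, 1, 4 and 3 of the 10 members passed, where 10.9%, 7.73% and 13.3% of all genes did. DESeq2 on the 3 groups called 0.424%, 0.252% and 0.869% of the genes to which it gave an adjusted p, and its calls included Pak1 in both comparisons of the Activity Reduction group and no other member. Since the members were chosen with these comparisons known, nothing is read from these counts. Pak1 was called by 5 of the 32 alternative settings against Inactive mice and by 2 of the 32 against Active mice, and not by the edgeR fit of all 21 libraries. Leaving out Active replicate 3 alone led edgeR to call it in both, and nothing is read from these calls either.

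The liver division was set by 24 liver genes that do not include the members. The members were still chosen with earlier results of these libraries known. With group in the fit, edgeR called 677 genes (4.20%) between libraries with more and fewer liver transcripts, 651 higher and 26 lower. At an unadjusted p under 0.05, 12.6% of genes passed, and 0 of the 10 members were called. Because liver transcripts of these same libraries set the division, calls among liver genes were largely fixed in advance. The 4.20% is therefore not a background for the members. Slc2a4 was 0.14 lower on the log2 scale in the libraries with more liver transcripts (log2 fold change -0.14, SE 0.0419), with an adjusted p of 0.0612 in edgeR's test, and was the only member with an unadjusted p under 0.05. For the other 9 members the adjusted p-values in this edgeR test ran from 0.581 for Tbc1d1 (log2 fold change -0.29, SE 0.178) to 0.968 for Pak2.

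Whether members varied together from mouse to mouse was examined within groups. The deviations of log2 normalized counts from the group means were correlated over the 13 libraries with fewer liver transcripts for all 45 pairs of members, with a permutation test within groups. Adjusted over the 45 pairs, 0 passed 0.05 by Pearson's r or by Spearman's rho, and 5 and 7 passed at an unadjusted p under 0.05. Irs1 and Irs2 had a positive coefficient (r = 0.80, permutation p = 0.00211, adjusted p = 0.0831, rho = 0.85, permutation p = 0.00241, adjusted p = 0.0542). Irs1 and Slc2a4 had a negative one (r = -0.80, permutation p = 0.0058, adjusted p = 0.0831, rho = -0.82, permutation p = 0.00478, adjusted p = 0.0571). Insr and Pak2 gave a positive one (r = 0.76, permutation p = 0.00615, adjusted p = 0.0831, rho = 0.80, permutation p = 0.00508, adjusted p = 0.0571), as did Irs2 and Akt2 (r = 0.67, permutation p = 0.00739, adjusted p = 0.0831, rho = 0.70, permutation p = 0.00996, adjusted p = 0.0896). Tbc1d1 and Slc2a4 gave r = 0.71 (permutation p = 0.0153, adjusted p = 0.137) and rho = 0.85 (permutation p = 0.00191, adjusted p = 0.0542).

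Without the 2 libraries farthest from the median of the gene named first, r was 0.64 for Irs1 with Irs2, -0.61 for Irs1 with Slc2a4, 0.70 for Insr with Pak2, 0.66 for Irs2 with Akt2 and 0.76 for Tbc1d1 with Slc2a4. In the 8 libraries with more liver transcripts the same pairs gave r of 0.06, 0.33, 0.79, 0.22 and -0.28, with permutation p-values from 0.17 for Insr with Pak2 to 0.887 for Irs1 with Irs2. Insr with Pak2 was thus the pair of these 5 whose r was above 0.6 in both sets. The 8 libraries were 5 Active, 2 Activity Reduction and 1 Inactive. With group means removed, the single Inactive library adds nothing to r and the 2 Activity Reduction libraries mirror each other. Its r there rests mainly on the 5 Active mice, and with a permutation p of 0.17 it does not settle whether the relation recurs. Over all 21 libraries with group and division removed, Insr with Pak2 had r = 0.69 (permutation p = 0.00084, adjusted p = 0.0378) and rho = 0.71 (permutation p = 0.00225, adjusted p = 0.101). Without the 2 libraries farthest from the median of Insr, r was 0.63. These 21 include the libraries in which the pair was picked, so they are not an independent test of it.

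**Figure D4:**
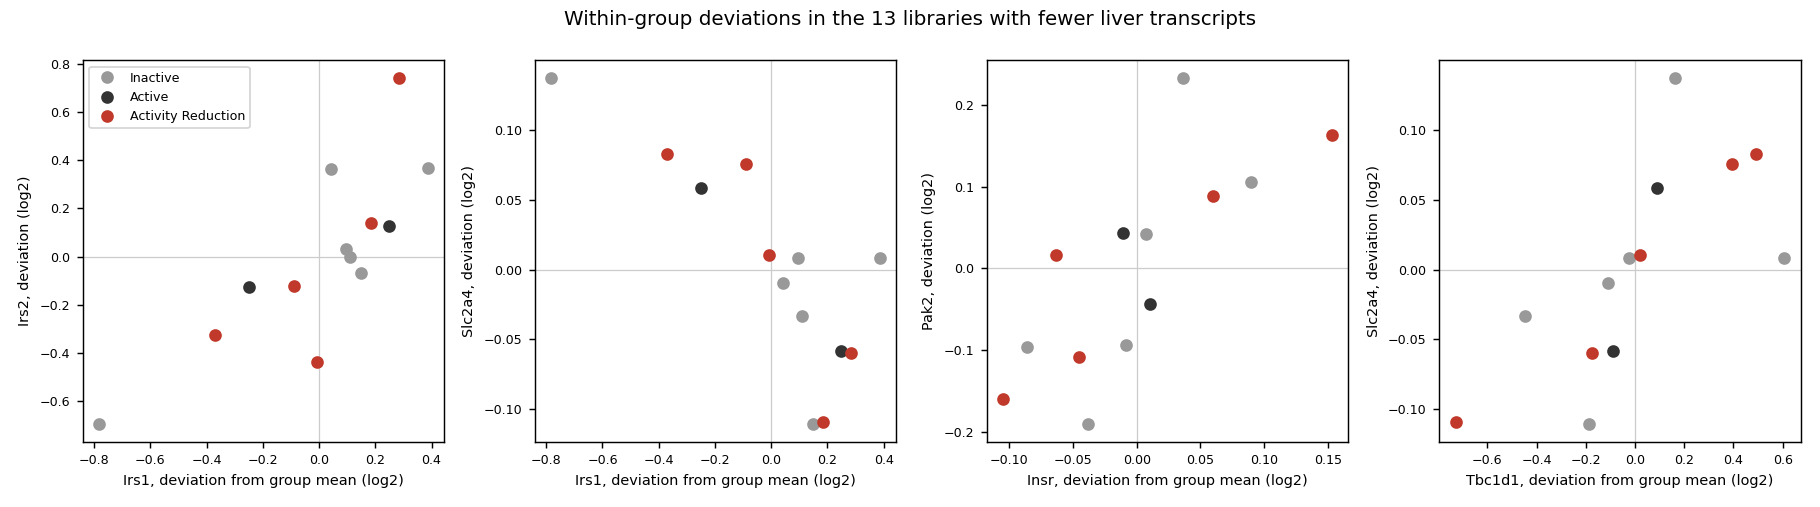
Deviation from the group mean (log2) of 4 pairs of members in the 13 libraries with fewer liver transcripts, with 1 point per library and colours for the groups. Irs2 goes up with Irs1 (r = 0.80), Slc2a4 down with Irs1 (r = -0.80), Pak2 up with Insr (r = 0.76) and Slc2a4 up with Tbc1d1 (r = 0.71), and none of the 4 has an adjusted p under 0.05.

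Genes whose levels followed 3 of the members most closely over the 21 libraries were picked by their r with group means kept in, so their r is a description. For Slc2a4 they were Hr (r = 0.86), Tbx15 (0.83) and Plin4 (0.82), and with group means removed r was 0.83, 0.79 and 0.84. For Insr they were Lrp6 (0.79), Ap1g1 (0.79) and Tet2 (0.76), with 0.80, 0.80 and 0.78 after group means were removed. For Pak1 they were Ak4 (0.81), Il12a (0.79) and Srrm4os (0.76), and with group means removed r was 0.59, 0.58 and 0.49. All these points share the library and its depth. The liver division was not removed from any of these r, and Slc2a4 differed by it (log2 fold change -0.14). The part of the division in these r was not tested.

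Other genes of the pathway, 116 in 5 lists, were measured in the same fit and 0 were called by edgeR in any of the 3 comparisons. At an unadjusted p under 0.05, 18 of the 116 (15.5%) passed in Active against Inactive mice, 8 higher and 10 lower, 10 (8.62%) in Activity Reduction against Inactive mice, 4 higher and 6 lower, and 14 (12.1%) in Activity Reduction against Active mice, 9 higher and 5 lower. Over all genes tested the shares were 10.9%, 7.73% and 13.3%. The median absolute log2 fold change of the 116 was 0.07, 0.05 and 0.06 in the 3 comparisons, beside 0.09, 0.08 and 0.10 over all genes tested.

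In the list of 34 genes of GLUT4 vesicles and their docking, 5 (14.7%, beside 10.9% of all genes) passed at an unadjusted p in Active against Inactive mice, and the smallest values belonged to Sort1 and Exoc7. Sort1 encodes sortilin, a cargo receptor of these vesicles, and Exoc7 a subunit of the exocyst, the complex that tethers vesicles to the membrane. Sort1 had a median of 5381 normalized counts in Inactive mice, 4484 in Active mice and 4791 in Activity Reduction mice, and every Activity Reduction library (highest 5009) lay below the lowest Inactive library (5075), as was so for 0.062% of all genes. The highest Active library (5093) lay above it, so Active and Inactive mice overlapped. Its log2 fold change was -0.24 (SE 0.0528) in Active and -0.22 (SE 0.0527) in Activity Reduction against Inactive mice, with adjusted p-values of 0.159 and 0.201 from edgeR. For Exoc7 the medians were 5108, 3873 and 4333, with log2 fold changes of -0.31 (SE 0.0714) and -0.25 (SE 0.0713) and edgeR adjusted p-values of 0.159 and 0.344. Both comparisons share the Inactive mice.

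Lrp1, a receptor found on the same vesicles, had a median of 2333 normalized counts in Inactive mice, 3251 in Active mice and 2431 in Activity Reduction mice. Its log2 fold change in Activity Reduction against Active mice was -0.41 (SE 0.126, adjusted p = 0.173 with edgeR). Fibroblasts also express it, and 4 of the 5 fibroblast markers were lower in that comparison at an unadjusted p, with summed levels of 154 to 220 CPM in Activity Reduction mice, 219 to 336 CPM in Active mice and 132 to 246 CPM in Inactive mice. Of the endothelial markers 3 of 7 (median log2 fold change -0.17), and of the macrophage markers 2 of 7 (median -0.34), were also lower there at an unadjusted p. The endothelial sum was 169 to 205 CPM in Activity Reduction and 198 to 261 CPM in Active mice, and the macrophage sum 19.7 to 60.1 CPM and 35.2 to 61.2 CPM. None of these markers was at 0, and their part in the result was not tested. Aspscr1, which encodes the GLUT4 tether TUG, differed by 0.14 in the same comparison (SE 0.0519, adjusted p = 0.264 with edgeR).

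Of the 29 genes from the receptor to Akt, 6 (20.7%, beside 7.73% of all genes) passed at an unadjusted p in Activity Reduction against Inactive mice, 4 higher and 2 lower. Akt1, the sister kinase of Akt2, had a log2 fold change of -0.14 (SE 0.0407, adjusted p = 0.344), and Ptpn1, a phosphatase that removes phosphate from the insulin receptor, had 0.25 (SE 0.0832, adjusted p = 0.450) in edgeR's test. Inpp5k, a phosphoinositide phosphatase, and Pik3r2, a regulatory subunit of PI3K, differed by -0.12 and 0.10 in Active against Inactive mice, and the receptor-binding adaptors Sh2b1 and Grb14 by 0.13 and -0.17 in Activity Reduction against Active mice, with adjusted p-values between 0.312 and 0.449 from edgeR. The next list held 16 genes, which were targets of Akt and genes that act with or after them, such as Ywhab and Gys1. Of these 16, 3 (18.75%, beside 10.9% of all genes) passed at an unadjusted p in Active against Inactive mice, all lower. In Activity Reduction against Active mice 3 passed, all higher, where 13.3% of all genes did, and both comparisons share the Active mice. Gsk3a, a kinase that inhibits glycogen synthase, had a log2 fold change of -0.10 (SE 0.0402, adjusted p = 0.386) and 0.15 (SE 0.0403, adjusted p = 0.137) in them, and Foxo4, a transcription factor that Akt keeps out of the nucleus, -0.14 (SE 0.0420, adjusted p = 0.266) and 0.13 (SE 0.0420, adjusted p = 0.183), all from edgeR. Gys1, muscle glycogen synthase, and Akt1s1, an mTORC1 subunit, differed by 0.06 and 0.09 in Activity Reduction against Inactive mice, with adjusted p-values of 0.708 and 0.748 in the same edgeR fit. In Activity Reduction against Active mice Akt1s1 was among the 3 that passed, with a log2 fold change of 0.16 (SE 0.0558, adjusted p = 0.219 with edgeR).

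In the 28 genes of RAC1 and actin, Tiam1, an exchange factor that loads RAC1 with GTP, had a median of 235 normalized counts in Inactive mice, 289 in Active mice and 181 in Activity Reduction mice. Its log2 fold change was -0.47 (SE 0.131, adjusted p = 0.143) in Activity Reduction against Active mice in edgeR's test. Cfl1, the actin-severing protein cofilin, differed by 0.19 (SE 0.0638, adjusted p = 0.325) in Active against Inactive mice and by -0.19 (SE 0.0639, adjusted p = 0.200) in Activity Reduction against Active mice with edgeR. Arhgef7, a binding partner of the PAK kinases, differed by 0.12 in Active against Inactive mice and Ssh2, a cofilin phosphatase, by -0.12 in Activity Reduction against Inactive mice, with edgeR adjusted p-values of 0.317 and 0.657. Among 9 genes of other glucose transporters and of glucose trapping, Slc2a10, the transporter GLUT10, differed by 0.50 (SE 0.220, adjusted p = 0.426) and Arrdc4, an arrestin-domain protein, by 0.32 (SE 0.137, adjusted p = 0.416) in Active against Inactive mice, both from edgeR. Slc2a1, the basal transporter GLUT1, and Slc2a8, the transporter GLUT8, differed by 0.19 and 0.08 in Activity Reduction against Inactive mice, and Hk1, which phosphorylates glucose, by -0.16 in Activity Reduction against Active mice, with edgeR adjusted p-values of 0.724, 0.809 and 0.435.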

How the data were processed

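RNA-seq of 21 mouse gastrocnemius libraries (7 per group) was analysed. The deposited values are raw counts of reads per gene: the authors used fastp for trimming of the paired reads, STAR for alignment to GRCm39 and featureCounts for counting (versions and strand setting not given in the sources used here). The second deposited table, labelled as normalized, equalled this one in all 857913 values and was left out. Libraries held 38482455 to 59785132 counts, and precision was set mainly by the spread between mice. Counts were divided by DESeq2 size factors for levels. The 16129 genes that passed edgeR's filterByExpr were fitted in 1 quasi-likelihood model of the 3 groups (edgeR 4.0.16, TMM, R 4.3.3), with Benjamini-Hochberg adjustment over all of them. DESeq2 1.42.0, which the authors used, was an alternative. The edgeR steps were tested on simulated counts, and the other steps were not.

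The 10 members, the pathway and marker lists and the tests were chosen with earlier results of these data known. Named are all 10 members, the genes called in each pathway list and comparison or otherwise up to 2 with the smallest unadjusted p, the 3 genes most correlated with Slc2a4, Pak1 and Insr, and 3 paralogue pairs. Of 8 marker lists (adipocyte, endothelial, macrophage, fibroblast, Schwann, fast fibre, slow fibre, liver), 0 genes were called between groups by edgeR. The division of libraries was the widest gap in mean log2 CPM of 24 liver genes. Correlations used log2(normalized count + 1) and 100000 permutations within groups. Positions, exon lengths and promoters came from GRCm39 with GENCODE annotation, and near-identical copies (at least 95% over 100 bases) from BLAST+ 2.17.0. No 2 libraries of a group agreed within sampling noise (chi-square per degree of freedom of 10.9 or more). Further alternatives were added after the data were seen: leaving out the 2 Activity Reduction libraries highest in Tbc1d1, the 2 Activity Reduction libraries lowest in slow-fibre markers, or the 3 libraries of any group lowest in them, the slow-fibre level as a covariate, and the correlation of members with that level.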

Additional observations from a re-analysis of the deposited data

Results flagged for a closer look

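Values were looked at for a library far from the other 6 of its group (gap to the nearest over the whole range above 0.568), in 123 sets of 7 libraries. Chance flags about 1 in 20 such sets, and 8 values were flagged, 0 of them in the 30 sets of the 10 members.

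Among pathway genes, Gys1 was at 16590 normalized counts in Active replicate 3, with the next library at 17665, and Inpp5k was at 1892 in Activity Reduction replicate 7, with the next at 1768. Among marker sums, macrophage markers reached 61.2 CPM in Active replicate 7, fibroblast markers were at 131.5 CPM in Inactive replicate 5, and fast-fibre markers at 141159 CPM in Inactive replicate 4. Schwann cell markers reached 125 CPM in Inactive replicate 7 and 158 CPM in Active replicate 7. Liver markers reached 2472 CPM in Inactive replicate 1, the only Inactive library among the 8 with more liver transcripts.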

How the results depend on the processing

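The 30 differences of members between groups were recomputed under 32 settings. Of the 960 values, 23 moved by more than the SE of the difference reported, and none of the 960 by more than 1 SD between mice of a group, which is wider. Those 23 included Tbc1d1, which moved from 0.55 to 0.24 against Inactive mice and from 0.28 to -0.02 against Active mice without the 2 libraries highest in it. The sign held in every setting for 18 of the 30 differences. Counts of calls moved more, and the cause was not tested. With DESeq2 on the 3 groups, 57, 23 and 117 transcripts were called in Active against Inactive, Activity Reduction against Inactive and Activity Reduction against Active mice, in place of 0, 2 and 0. With DESeq2 on only the 2 groups compared there were 75, 44 and 132. Pathway genes called were 1, 0 and 1 on the 3 groups (Exoc7 and Tiam1), and 1, 1 and 2 on the 2 groups (Exoc7, Exoc7, and Lrp1 with Tiam1), in place of 0.

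In Activity Reduction against Inactive mice, the count was 0 with median-of-ratios size factors in edgeR, 1 when the fit included the liver division, 0 among the 13 libraries with fewer liver transcripts, 0 without the 2 Activity Reduction libraries lowest in slow-fibre markers, 4 without the 3 lowest of any group, 0 without the 2 highest in Tbc1d1 and 0 with the slow-fibre level as a covariate. In Activity Reduction against Active mice it was 1 with the size factors and 1 with the slow-fibre covariate. The settings with libraries left out for Tbc1d1 or slow-fibre markers, and the slow-fibre covariate, were chosen after seeing the data. Leaving out 1 library gave 0 to 1, 0 to 6 and 0 to 9 calls in the 3 comparisons. The highest counts came without Active replicate 3, which gave 6 and 8 calls in the Activity Reduction comparisons with Pak1 in both, and without Activity Reduction replicate 7, which gave 9.

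Replicate numbers did not pair the mice: correlations of same-numbered libraries ran from -0.23 to 0.44, and 3 of 21 libraries correlated best with their own number. With a replicate block, 4 transcripts, Pak1 among them, were called in Activity Reduction against Inactive mice. Pak1 was called there by 5 settings: DESeq2 on 3 and on 2 groups, the replicate block, without Active replicate 3, and without the 3 libraries lowest in slow-fibre markers. Since the members were chosen with these comparisons known, nothing is read from these calls.

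Of the 45 pairs of members, 1 passed adjustment over all 21 libraries with the division removed, in place of 0.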

Other observations

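The slow-fibre marker level was set beside the members within groups, a relation added after the data were seen. Over the 13 libraries with fewer liver transcripts, r of the within-group deviations was 0.67 for Tbc1d4 (permutation p = 0.164, adjusted over 10 members p = 0.524, rho = 0.14, permutation p = 0.685, adjusted p = 0.761), and 0.05 without the 2 libraries farthest from the median of Tbc1d4, so the relation rests on those libraries. For Slc2a4 it was 0.48 (permutation p = 0.0876, adjusted p = 0.524, rho = 0.51, permutation p = 0.0814, adjusted p = 0.397), and 0.59 without the 2 farthest. None of the 10 members passed 0.05 by either measure, adjusted or not, in these 13 libraries or over all 21 with the division removed.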
